A study of Drosophila melanogaster with 23 samples.

Results

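Among the genes of Drosophila melanogaster that carry only a CG number as their symbol, 15 were far more abundant in whole ovaries than in ovaries whose germ cells cannot differentiate, and these 15 were followed through 20 further ovary libraries. They were chosen by their measured levels, as the genes with at least 20 CPM (counts per 1000000 counts of a library) in the whole-ovary library and a level there at least 16 times the mean of the 2 bam RNAi libraries plus 0.1 CPM. The table held 17023 genes, of which 6001 had a CG symbol and 1274 of those reached 20 CPM in whole ovaries. The 3 libraries that chose the genes are described but enter no test.

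All libraries came from ovaries dissected 1 to 5 days after eclosion, 2 per group except for the single whole-ovary library. The control called hsbam (genotype bam RNAi; hsbam>nosGAL4) combined RNAi against bam, driven in germ cells by nosGAL4, with a bam transgene. Libraries hsbam 1 and 2 were the control of msl3 RNAi and NC2b RNAi, and hsbam 3 and 4 that of Set2 RNAi. Each of these RNAi groups, like S19b RNAi, was crossed to UAS-Dcr2;nosGAL4 and carried no bam RNAi, and whole ovaries had UAS-Dcr2;nosGAL4 alone. A separate set took total and polysome RNA of hsbam ovaries and of S19b RNAi ovaries, and another held bam RNAi>nosGAL4 with or without an S19b mutant background. The RNAi was driven by nosGAL4, which acts in germ cells, whereas the S19b mutant background is not limited to a cell type by this driver. The hsbam control differs from each RNAi group both in the target and in how bam was handled.

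An egg chamber matures as nurse cells load the oocyte with maternal mRNA while the follicle cells around it secrete the vitelline membrane and then the chorion, the layers of the eggshell. The chorion genes are switched on in a set order near the end of this process, the X-linked cluster with Cp36 and Cp38 before most genes of the cluster on the third chromosome with Cp16 and Cp19. Ovaries without bam hold undifferentiated germ cells and build no egg chambers, so many genes of egg chambers are lower in them than in whole ovaries. The files and the reference describe no function of the 15 genes beyond a synonym of CG31262, given below, and none is assumed here.

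Total counts ran from 2780781 in hsbam polysome 2 to 39149303 in hsbam 3. The targeted genes were read first, as a check of the labels. In the libraries labelled MSL3 RNAi, msl-3 stood at 65.6 and 39.1 CPM, compared with 31.97 and 38.5 CPM in hsbam 1 and 2. It had 55.6 and 64.2 CPM in NC2b RNAi and 53.6 and 67.1 CPM in Set2 RNAi. The RNA came from all ovary cells and the driver acts in germ cells. These values thus do not bear out the label and cannot refute it, and these libraries are named by their label only. NC2beta had 4.69 and 5.12 CPM in NC2b RNAi against 12.17 and 16.0 CPM in hsbam 1 and 2. It was also low at 7.78 and 6.87 CPM in libraries labelled MSL3 RNAi 1 and 2 and at 6.25 CPM in whole ovaries. Set2 had 62.2 and 54.3 CPM in Set2 RNAi against 266 and 37.2 CPM in hsbam 3 and 4, so hsbam 4 lay below both. RpS19b had 16.8 and 1.44 CPM in S19b RNAi total RNA against 39.4 and 227 CPM in hsbam total RNA. It was also low in NC2b RNAi, at 3.39 and 3.14 CPM, and in whole ovaries, at 4.90 CPM. Libraries labelled MSL3 RNAi 1 and 2 had 1.26 and 3.09 CPM of it, and Set2 RNAi 1 and 2 had 2.78 and 5.26 CPM. These values do not establish the NC2b, Set2 and S19b labels, which are used as given. Dcr-2, the gene carried by UAS-Dcr2, reached 6786 CPM in whole ovaries but only 137 to 914 CPM in the 10 libraries labelled MSL3, NC2b, Set2 or S19b RNAi, which carry the same transgene by label, against 842 and 1163 CPM in hsbam 1 and 2. The labels do not say that libraries of a group were dissected separately, so the p-values measure only the spread between these libraries.

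The 15 genes in whole ovaries were led, per kilobase of exon, by CG11674 with 139.7 CPM per kb (164 CPM, chromosome X, 14224647 to 14225879, dm6). CG6293 followed with 46.1 CPM per kb (chromosome 3R, 10307806 to 10311613), then CG4408 with 40.5 (chromosome 3R, 23361889 to 23363574) and CG13083 with 39.96 CPM per kb (chromosome 2L, 19487490 to 19488691). The next 4 were CG13114 (chromosome 2L, 9545811 to 9547424), CG44005 (chromosome 3L, 18070300 to 18072123), CG14309 (chromosome 3R, 18381580 to 18385072) and CG31262 (chromosome 3R, 17217116 to 17223074), at 34.7, 30.8, 28.7 and 27.3 CPM per kb. RefSeq lists dSLC5A14 as a synonym of CG31262. The other 7, from CG13084 (chromosome 2L, 19484930 to 19486532) at 23.7 down to CG40006 (chromosome 2L, 22622417 to 22756349) at 12.4 CPM per kb, also comprise CG4009 (chromosome 3R, 17033588 to 17036045), CG4267 (chromosome 2L, 2242378 to 2245274), CG32642 (chromosome X, 12959220 to 12960790), CG15570 (chromosome X, 4218170 to 4223331) and CG9896 (chromosome 2R, 22993669 to 22998884). The values that chose the genes are a description. The largest ratios of whole ovaries to bam RNAi were 115.1 for CG15570, 105 for CG44005, 82.8 for CG9896 and 66.0 for CG4408. At the edge of the ratio lay CG40006 at 18.0 and CG11674 at 23.1 inside, and CG8180 at 13.2 and CG11381 at 12.8 outside. At the edge of the level, CG32642 and CG40006 were inside at 25.04 and 32.1 CPM, and CG4066 and CG7458 outside at 19.8 and 17.6 CPM.

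The 15 genes were all annotated as protein-coding, and their gene models resembled those of other protein-coding genes in size. They had a median of 2 introns, 454 codons and 2043 bp of exon, beside 2 introns, 391 codons and 1722 bp over the 13648 protein-coding genes of the table. CG4408 alone had no intron, and 3 of the 15 (20.0%) lay on the X chromosome beside 15.6% of all protein-coding genes. CG13083 and CG13084 were neighbours, 957 bp apart on chromosome 2L and on the same strand. Of the genes overlapped by another, CG11674 lay opposite Prp16, CG6293 opposite Nuak, CG13083 opposite CG10194 and CG9896 opposite twi (within introns). CG4267 and CG40006 overlapped the noncoding genes CR42859 and CR43927 on the same strand, the latter within introns. How the authors' counting treated strand is not given in the sources used here. The values of CG11674, CG6293, CG13083 and CG4267, whose exons overlap, may include reads of their partners. For CG9896 and CG40006, without overlap of exons, this would need reads in introns to be counted.

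**Figure D1:**
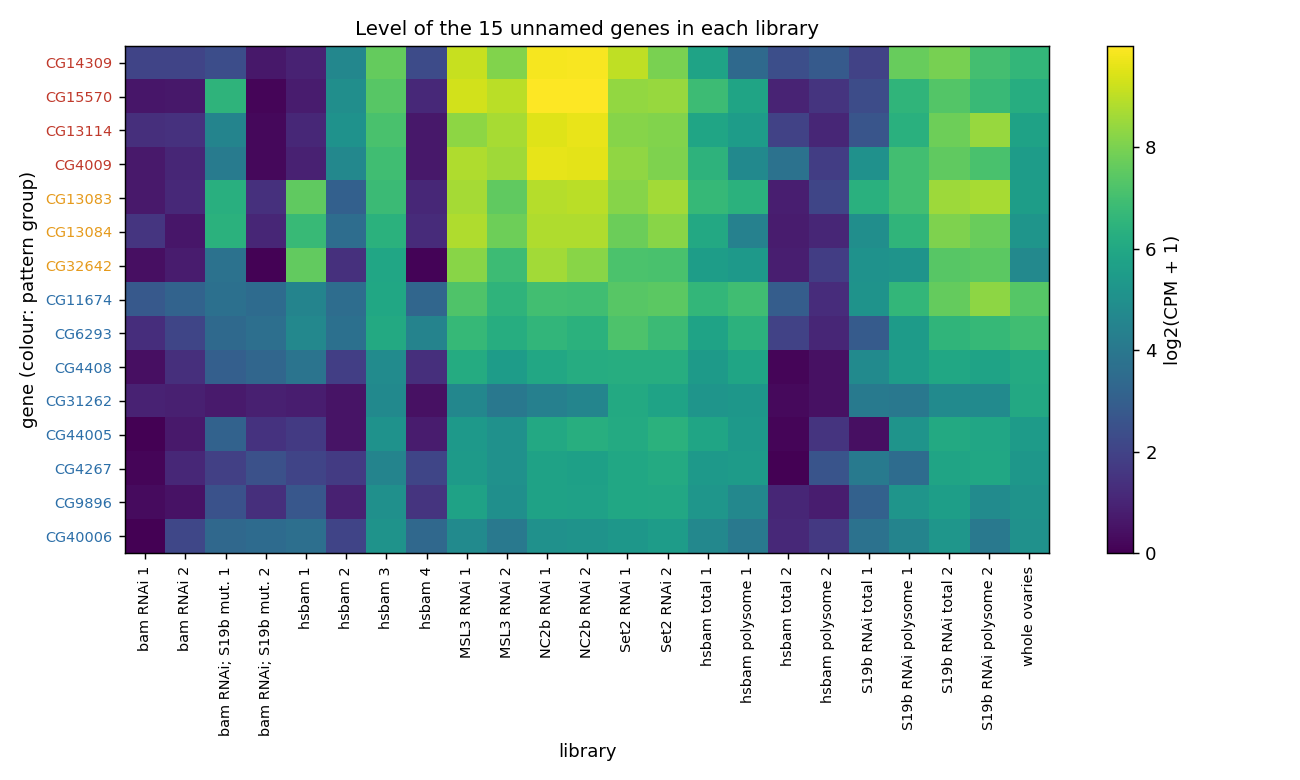
The colour shows log2(CPM + 1) of each of the 15 genes (rows) in each of the 23 libraries (columns), with gene names coloured by the list gene they follow most closely (red: Cp36, Cp38 or Cp7Fb; orange: Cp16, Cp19 or Femcoat; blue: a maternal gene or clos). The 15 genes are low together in hsbam 4 and hsbam total 2 and high together in the libraries labelled MSL3, NC2b and Set2 RNAi, while hsbam 1 is high for the orange and low for the red genes. The whole-ovary and bam RNAi columns chose the genes.

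In sum, the genes were near silent in some control libraries and about as high as in whole ovaries in others of the same label. Their summed level was 572, 164, 1182 and 55.8 CPM in hsbam 1, 2, 3 and 4. In total RNA it was 919 CPM in hsbam 1 and 35.3 CPM in hsbam 2, and in polysome RNA 709 and 31.3 CPM. The whole-ovary library had 939.6 CPM, so hsbam 3 lay above it and hsbam 4 far under it. Gene by gene, 8 of the 15 reached their whole-ovary level in hsbam 3 and 9 in hsbam total 1.

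The libraries labelled MSL3, NC2b and Set2 RNAi had the highest sums. The 15 genes together took 3600.3 and 2422 CPM in libraries labelled MSL3 RNAi 1 and 2, 5294 and 5270.2 CPM in NC2b RNAi, and 2794 and 2639 CPM in Set2 RNAi. S19b RNAi was split by number, with 307 CPM in total RNA 1 and 2194 CPM in total RNA 2. All 6 libraries of the first 3 groups thus stood above all 4 hsbam libraries and above whole ovaries. In such bulk RNA, fewer cells of a type and less RNA per cell cannot be told apart.

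The 15 genes varied together across the 20 libraries that did not choose them, in a shared pattern with 3 variants. Over the 105 pairs of genes, Pearson's r of log2(CPM + 1) ran from 0.680 to 0.977 with a median of 0.843, as a description of libraries that share genotypes and RNA preparations. The highest values were 0.977 for the neighbours CG13083 and CG13084, 0.976 for CG13083 with CG32642, and 0.974 for CG15570 with CG13114. Each gene was also set beside 31 eggshell genes and 32 maternal genes. Likeness to the summed eggshell genes was highest for CG13114 (r = 0.820), CG13084 (0.799) and CG14309 (0.771), and likeness to the summed maternal genes for CG9896 (0.962), CG44005 (0.921) and CG31262 (0.917). All 15 genes had a higher r with the maternal than with the eggshell sum, CG13114, CG13084 and CG14309 included, at 0.887, 0.856 and 0.846 with the maternal sum.

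By the single list gene they followed most closely, a grouping made after the values were seen, 4 genes went with the X-linked chorion genes. These were CG13114 and CG4009 with Cp36 (r = 0.960 and 0.958), CG15570 with Cp38 (0.928) and CG14309 with Cp7Fb (0.953). A further 3 went with genes of the other chorion cluster or with Femcoat, namely CG32642 with Cp16 (0.971), CG13084 with Cp19 (0.950) and CG13083 with Femcoat (0.979). The remaining 8 followed a maternal gene or clos. They were CG11674 and CG4408 with alphaTub67C, the maternal alpha-tubulin (0.955 and 0.982), CG6293 with plu (0.940), CG9896 with mtrm, a Polo inhibitor of the oocyte (0.971), CG44005 with CycA (0.956), CG4267 with swa (0.930), CG40006 with me31B (0.923) and CG31262 with clos (0.939). The lists held genes of late and of earlier oogenesis, so the likeness gives no stage, and each r is over 20 libraries with no p.

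The first variants were told apart by hsbam 1 and hsbam 2, libraries of one genotype. Both were among the 20 libraries behind the grouping, so their levels describe it and give it no separate support. CG13114 had 1.15 CPM in hsbam 1 and 33.3 CPM in hsbam 2, as Cp36 had 16.0 and 154 CPM. CG15570 had 0.680 and 29.5 CPM there, beside 19.1 and 217 CPM of Cp38. CG4009 (0.886 and 24.6 CPM) and CG14309 (0.945 and 23.7 CPM) were likewise higher in hsbam 2. The order was the opposite for the next 3 genes. CG32642 had 193 CPM in hsbam 1 and 1.63 CPM in hsbam 2, as Cp16 had 411 and 4.02 CPM. CG13083 fell from 188 to 7.34 CPM and CG13084 from 105 to 10.8 CPM between these libraries, as Cp19 did from 515 to 12.12 CPM. The 8 genes closest to maternal genes or clos were higher in hsbam 1 too, but by less, with medians of 8.60 and 2.50 CPM. With 1 library on each side, this difference has no test.

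**Figure D2:**
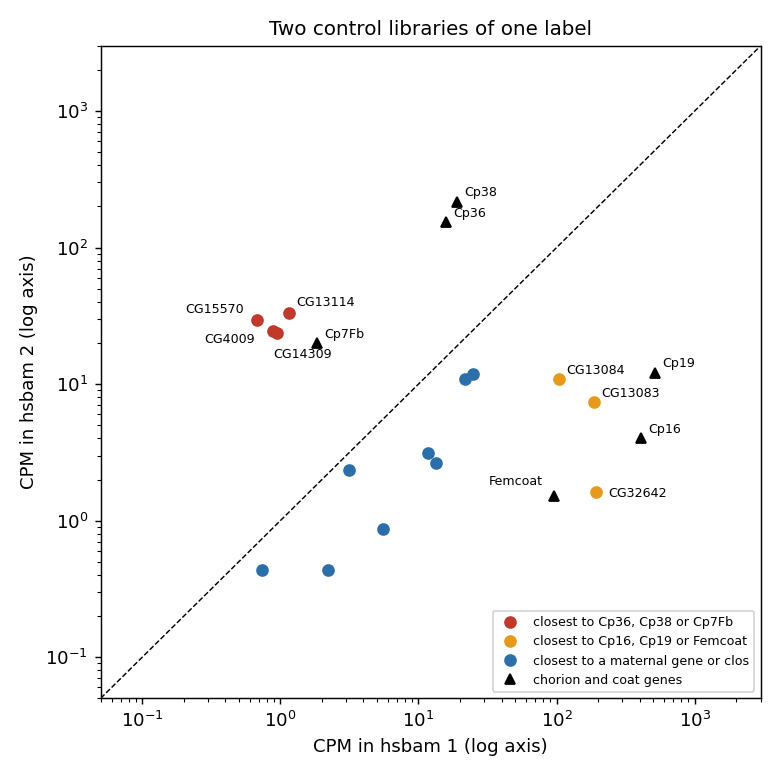
Each point is a gene, with its CPM in hsbam 1 (x, log axis) against that in hsbam 2 (y, log axis), and the dashed line marks equal levels. The 4 red genes lie above the line together with Cp36, Cp38 and Cp7Fb (black triangles), and the 3 orange genes lie below it together with Cp16, Cp19 and Femcoat. The 8 blue genes lie below it as well, closer to the line.

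The same variants differed in how the RNAi groups, whose libraries also entered the grouping, compared with whole ovaries. The 4 genes closest to Cp36, Cp38 or Cp7Fb stood at 2.64 to 17.8 times their whole-ovary level in the 6 libraries of MSL3, NC2b and Set2 RNAi by label, and the 3 closest to Cp16, Cp19 or Femcoat at 4.12 to 15.6 times. CG15570 had 1021 and 1008 CPM in NC2b RNAi against 74.4 CPM in whole ovaries, and CG32642 had 390.5 and 298 CPM against 25.04 CPM. The 8 genes of the maternal variant stayed between 0.237 and 1.91 times whole ovaries. CG31262, the lowest of them by this ratio, had 23.6 and 15.1 CPM in libraries labelled MSL3 RNAi against 63.9 CPM in whole ovaries. Chorion genes lay above whole ovaries in the same way, Cp38 with 5564 and 5212 CPM in NC2b RNAi against 347 CPM.

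Counts of genes at or above whole ovaries cannot show whether this set is usual, because the genes were chosen for high values there. In all 6 libraries labelled MSL3, NC2b or Set2 RNAi 7 of the 15 genes were at or above whole ovaries, beside 52.6% of all genes, and in both NC2b RNAi libraries 11 of 15, beside 65.3%. There was 1 whole-ovary library, which also chose the genes, so these ratios are given without a test.

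**Figure D3:**
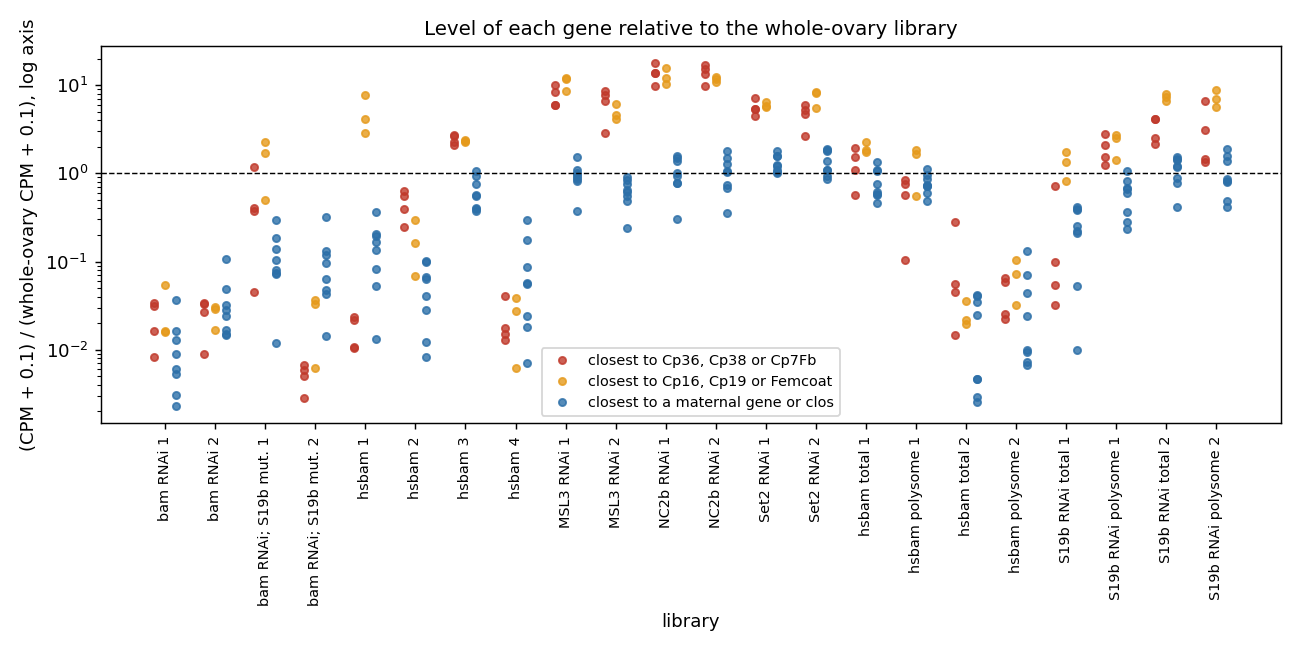
Each point is the level of 1 gene in 1 library divided by its level in the whole-ovary library (both as CPM + 0.1, log axis), and the dashed line marks equality. In the libraries labelled MSL3, NC2b and Set2 RNAi the red and orange genes lie above 1 and the blue genes around it, in S19b RNAi total 1 the red genes lie below 1, and in bam RNAi, hsbam 4 and hsbam total 2 all 3 colours lie far below 1.

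NC2b RNAi and the libraries labelled MSL3 RNAi were each compared with hsbam 1 and 2, their named control. Of the 15 genes, 9 rose and 0 fell in the libraries labelled MSL3 RNAi, beside 16.8% of all 10180 tested genes that rose and 8.48% that fell. In NC2b RNAi 11 rose and 0 fell, beside 14.1% and 4.53%. The 2 comparisons share their control libraries. The genes were chosen by whole ovaries against bam RNAi. Whole ovaries, like these RNAi groups, carry UAS-Dcr2;nosGAL4, and hsbam carries bam RNAi. The share over all genes therefore cannot show whether this set is unusual, here or in the later comparisons with hsbam. The median log2 fold change of the 15 genes was 3.72 in the first comparison and 4.08 in the second, and that of all tested genes was -0.09 in each. The same 9 genes rose in both, and CG13114 and CG15570 passed in NC2b RNAi only. These 2 calls depended on the method. DESeq2 called 12 of the 15 in the libraries labelled MSL3 RNAi, with CG13114, CG15570 and CG40006 added, beside 19.5% of all genes higher and 13.6% lower. In NC2b RNAi it called 13, with CG13084 and CG40006 added, beside 18% higher and 14.8% lower. With library size alone for scaling, or without either library labelled MSL3 RNAi, CG13114 and CG15570 missed the threshold in NC2b RNAi by edgeR.

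The clearest rises by p were those of the maternal-variant genes CG31262 and CG4267, whose hsbam libraries were alike. CG31262 had 0.739 and 0.435 CPM in hsbam 1 and 2, 23.6 and 15.1 CPM in libraries labelled MSL3 RNAi 1 and 2, and 19.2 and 22.4 CPM in NC2b RNAi 1 and 2. CG4267 had 3.13 and 2.34, then 42.6 and 32.4, then 53.3 and 49.9 CPM in the same order of libraries. In both genes the 4 RNAi libraries lay close together and far above both controls. Their log2 fold changes were 5.07 (SE 0.45) and 3.84 (SE 0.27) in the libraries labelled MSL3 RNAi, each with adjusted p = 0.00979 in edgeR's quasi-likelihood test (Benjamini-Hochberg). In NC2b RNAi they were 5.20 (SE 0.45) and 4.32 (SE 0.28), each with adjusted p = 0.0166 by the same edgeR test.

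CG11674, the most abundant of the set in whole ovaries, had 21.7 and 11.0 CPM in hsbam 1 and 2. It had 150.4 and 89.6 CPM in libraries labelled MSL3 RNAi, and 126 and 121 CPM in NC2b RNAi. CG44005 had 2.22 and 0.435 CPM in the controls against 41.7, 32.6, 64.9 and 77.0 CPM, and CG6293 had 24.7 and 11.9 CPM against 103, 73.1, 94.2 and 81.5 CPM. None of the 3 had a control library as high as any of the 4 RNAi libraries. By edgeR's quasi-likelihood test (Benjamini-Hochberg), CG11674 rose by 2.93 (SE 0.41, adjusted p = 0.0100) and 3.00 (SE 0.42, adjusted p = 0.0166) on the log2 scale in the first and second comparison. CG44005 rose by 4.79 (SE 0.68) and 5.75 (SE 0.71), and CG6293 by 2.33 (SE 0.39) and 2.35 (SE 0.39). CG9896 and CG4408 passed in both comparisons with rises of 2.88 to 4.08. The eighth gene of this variant, CG40006, had 11.6 and 3.15 CPM in the controls against 26.5, 15.5, 32.2 and 34.01 CPM and missed the threshold in both, with adjusted p = 0.122 and 0.0605 in edgeR's quasi-likelihood test, but passed in both by DESeq2, with adjusted p = 0.0414 and 0.00298.

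The 4 genes closest to Cp36, Cp38 or Cp7Fb had large fold changes with wide errors. CG14309 had 0.945 and 23.7 CPM in hsbam 1 and 2, 565 and 273 CPM in libraries labelled MSL3 RNAi, and 932 and 941 CPM in NC2b RNAi. CG15570 had 628 and 497, then 1021 and 1008 CPM in the same groups, CG4009 had 445, 381, 797 and 760.5 CPM, and CG13114 had 314, 412, 730.4 and 801 CPM. Each of the 4 RNAi libraries exceeded both controls for all 4 genes. CG14309 rose by 5.19 (SE 1.39, adjusted p = 0.0434) in the libraries labelled MSL3 RNAi and by 6.38 (SE 1.47, adjusted p = 0.0369) in NC2b RNAi, and CG4009 by 5.13 (SE 1.37) and 6.06 (SE 1.43), by edgeR's quasi-likelihood test (Benjamini-Hochberg). CG15570 had log2 fold changes of 5.33 (SE 1.52, adjusted p = 0.0517) and 6.20 (SE 1.58, adjusted p = 0.0467), and CG13114 of 4.51 (SE 1.36, adjusted p = 0.0606) and 5.60 (SE 1.44, adjusted p = 0.0471), by the same edgeR test.

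The 3 genes closest to Cp16, Cp19 or Femcoat passed in neither comparison by edgeR, and DESeq2 called CG13084 in NC2b RNAi (adjusted p = 0.0335). Their hsbam 1 library, with 104 to 193 CPM, stood far above hsbam 2. CG13083 had 396 and 189 CPM in libraries labelled MSL3 RNAi and 474 and 501 CPM in NC2b RNAi. CG13084 had 443, 221, 443 and 452 CPM, and CG32642 had 299, 114, 390.5 and 298 CPM. For CG32642 hsbam 1 exceeded the lower library labelled MSL3 RNAi, the only overlap among the 15 genes in these 2 comparisons. Their adjusted p-values by edgeR's quasi-likelihood test ran from 0.0849 to 0.641, with fold changes from 1.13 (SE 1.59) to 3.04 (SE 1.01).

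Both libraries labelled MSL3 RNAi exceeded both hsbam libraries for 14 of 15 genes, beside 32.4% of all genes, and NC2b RNAi did for 15 of 15, beside 35.3%. Single libraries moved the counts of calls by more than 1.5 times. Without hsbam 1 all 15 genes passed in both comparisons, the 3 genes of the Cp16 variant included, among 1976 and 1176 calls over all genes. Without the library labelled MSL3 RNAi 1 the first count was 4 among 1073 calls over all genes, without NC2b RNAi 1 it was 5 among 987, and without NC2b RNAi 2 it was also 5. Without either NC2b RNAi library the second count was 0, with 13 genes at an unadjusted p under 0.05, and edgeR called 0 genes in the whole table. With hsbam 1 to 4 together as control 0 genes passed in either comparison by edgeR, with 7 and 11 at an unadjusted p under 0.05 and medians of 2.18 and 2.70, while 167 and 33 genes passed in the whole table.

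Summed marker genes of other cells varied among these libraries. Of the lists given here, only the follicle cell sums separated both RNAi groups from the controls. The 11 matched muscle sheath genes, all detected, summed to 27624 and 8425 CPM in hsbam 1 and 2, 4788 and 14194 CPM in libraries labelled MSL3 RNAi, and 4082 and 4802 CPM in NC2b RNAi. Genes of escort, cap and terminal filament cells, 8 matched, summed to 1181 to 1240.3 CPM in hsbam 1 and 2, 594 to 1448 CPM in libraries labelled MSL3 RNAi and 525 to 534 CPM in NC2b RNAi, where en was at 0. Follicle cell genes, 17 matched and all detected, had 2611 to 3042 CPM in these controls and 1499 to 2432 CPM over both RNAi groups. Fat body and hemocyte genes, 10 matched and all detected, ranged from 1265 to 5682 CPM in the controls and from 947 to 7409 CPM over both RNAi groups. Their part in the rises of the 15 genes was not tested.

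**Figure D4:**
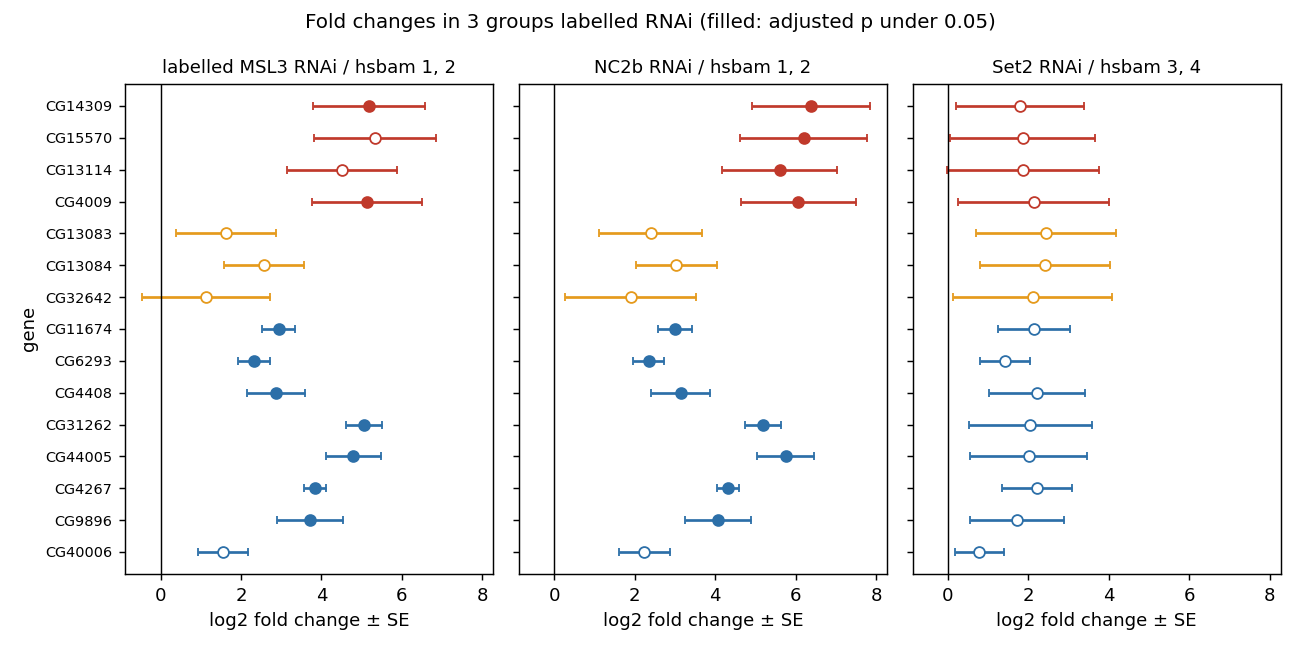
Points give the log2 fold change of each of the 15 genes with its SE from edgeR, in NC2b RNAi and the libraries labelled MSL3 RNAi against hsbam 1 and 2 and in Set2 RNAi against hsbam 3 and 4. Filled points passed an adjusted p of 0.05. All 45 changes are above 0, and 9, 11 and 0 of the 15 genes passed in the 3 panels.

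The wider lists changed alongside in these comparisons. Of 31 eggshell genes tested, 12 rose and 0 fell in the libraries labelled MSL3 RNAi and 13 rose and 0 fell in NC2b RNAi, with medians of 1.67 and 2.38 on the log2 scale. Of 30 maternal genes tested, 28 and 26 rose and 0 fell, with medians of 2.39 and 2.49. A total of 36 genes with another kind of symbol met the same 2 thresholds as the 15, among them osk, yl, wisp, Cp36, Cp38 and yellow-g. Of these 36, 23 rose in the libraries labelled MSL3 RNAi and 24 in NC2b RNAi, with medians of 3.38 and 3.60, and 1, Dcr-2, fell in each. The unnamed genes had medians of 3.72 and 4.08 beside them.

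Set directly against each other, NC2b RNAi and the libraries labelled MSL3 RNAi did not differ in any of the 15 genes by the test. All 15 log2 differences were negative, the libraries labelled MSL3 RNAi being lower, from -1.19 for CG14309 (SE 1.17) to -0.02 for CG6293 (SE 0.37), with a median of -0.68 beside 0.04 over all genes. By edgeR's quasi-likelihood test 0 of the 15 passed and 0 had an unadjusted p under 0.05, and the percentage of all genes that passed was 0. By DESeq2 0 of the 15 passed, beside 0.855% of all genes higher and 1.43% lower. CG13114 and CG15570, which passed against hsbam in NC2b RNAi only by edgeR, differed by -1.10 (SE 1.19) and -0.87 (SE 1.27), with adjusted p = 0.719 and 0.799 by the same edgeR test. Both NC2b RNAi libraries exceeded both libraries labelled MSL3 RNAi for 8 of 15 genes, beside 23.2% of all genes.

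In Set2 RNAi every gene of the set was higher than in hsbam 3 and 4, but none passed the test. CG4267 had 60.5 and 68.7 CPM in Set2 RNAi 1 and 2 against 21.7 and 3.25 CPM in hsbam 3 and 4. CG11674 had 166 and 179 CPM against 60.8 and 8.93 CPM, and CG15570 had 335 and 347 CPM against 169 and 1.22 CPM. Each had 2 similar Set2 RNAi libraries above 2 dissimilar controls. The groups did not overlap for 15 of 15 genes, beside 40.6% of all genes. The median log2 fold change was 2.05, with a range from 0.78 to 2.44 and SEs from 0.61 to 1.97, and the median over all genes was 0.04. By edgeR's quasi-likelihood test (Benjamini-Hochberg) 0 of the 15 passed, with the lowest adjusted p at 0.244 for CG4267, 0 had an unadjusted p under 0.05, and the percentage of all genes that passed was 0. DESeq2 called 2 of the 15, CG4267 and CG11674 (adjusted p = 0.0400 and 0.0449), both higher, beside 1.9% of all genes higher and 12.6% lower.

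The count in Set2 RNAi depended on the control. Without hsbam 3 it was 15, with a median of 6.55, among 5661 calls over all genes. Without hsbam 4 it was 13, all higher, among 2454 calls, and with hsbam 1 to 4 as control it was 2 among 1114. Heat shock genes, 12 of 13 detected with Hsp22 at 0, summed to 25655 and 35629.7 CPM in hsbam 3 and 4 and to 6672 and 6764 CPM in Set2 RNAi, beside 3890.0 and 4766 CPM in hsbam 1 and 2. Muscle sheath genes summed to 16931 and 34323 CPM in hsbam 3 and 4 and to 1598 and 1514 CPM in Set2 RNAi. Their part in the difference was not tested.

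All 6 libraries labelled MSL3, NC2b or Set2 RNAi exceeded all 4 hsbam libraries for 10 of the 15 genes, beside 12.5% of all genes. The 5 others each had 1 hsbam library inside the range of these 6. For CG32642 it was hsbam 1, and for CG31262, CG44005, CG9896 and CG40006 it was hsbam 3. CG31262 had 25.6 CPM in hsbam 3, above the 15.1 to 23.6 CPM of the libraries labelled MSL3 RNAi.

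S19b RNAi was compared with hsbam in total RNA and in polysome RNA, the part of the RNA on polysomes, where ribosomes translate it. In total RNA the 15 genes had a median log2 fold change of 1.00 (range 0.11 to 2.12) beside 0.04 over all genes. By edgeR's quasi-likelihood test 0 passed, with adjusted p = 1 for every gene, 0 had an unadjusted p under 0.05, and the percentage of all genes that passed was 0. DESeq2 called 0 of the 15, beside 0.299% of all genes higher and 0.175% lower. The 2 libraries of each genotype lay far apart. CG14309 had 2.97 and 243 CPM in S19b RNAi total 1 and 2 and 54.5 and 4.28 CPM in hsbam total 1 and 2. CG13083 had 80.4 and 367 CPM against 104 and 0.797 CPM. In total RNA the genotypes did not separate for any of the 15 genes, beside 18.9% of all genes that were higher in S19b RNAi without overlap. Without S19b RNAi total 2 the median turned to -0.57, and it was 6.13 without hsbam total 1 and 0.00 without hsbam total 2. Muscle sheath genes summed to 5359.6 and 21842 CPM in hsbam total 1 and 2 and to 25366 and 8055 CPM in S19b RNAi total 1 and 2. Within each of these 2 genotypes, the total RNA library with more of them had less of the 15 genes. The same held for hsbam 3 and 4, but hsbam 1 and 2 went the other way. Hsbam 1 had 27624 CPM of muscle sheath genes and 572 CPM of the 15 genes, and hsbam 2 had 8425 and 164 CPM. Heat shock genes summed to 22926 and 29629.8 CPM in hsbam total and to 3247 and 4949 CPM in S19b RNAi total. The part of either list was not tested.

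In polysome RNA the median was 1.81 beside 0.12 over all genes, and 5.23 without hsbam polysome 1. The genes with an unadjusted p under 0.05 were 3 of the 15, beside 320 of 9688 over all genes. CG14309 had 203 and 128 CPM in S19b RNAi polysomes against 9.81 and 6.11 CPM in hsbam polysomes, a log2 fold change of 4.20 (SE 1.602). CG13084 had 91.4 and 209 CPM against 20.0 and 1.08 CPM (3.81, SE 1.69), and CG4009 had 124 and 138 CPM against 25.6 and 2.52 CPM (3.20, SE 1.16). After Benjamini-Hochberg adjustment 0 of the 15 passed by edgeR's quasi-likelihood test (adjusted p = 0.989 for these 3), and the percentage of all genes that passed was 0. Without a filter on low counts 5 of the 15 passed, among 67 calls over all genes. DESeq2 called 0 of the 15, beside 0.599% of all genes higher and 0.557% lower. Both S19b RNAi polysome libraries exceeded both hsbam polysome libraries for 8 of 15 genes, beside 14.5% of all genes. Heat shock genes summed to 23053 and 45837 CPM in hsbam polysomes and to 4000.5 and 4210.2 CPM in S19b RNAi polysomes, and their part was not tested.

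The polysome share followed no common course in the 4 pairs of libraries with one number. With 1 CPM added, the median log2 ratio of polysome to total RNA over the 15 genes was -0.37 in hsbam 1 and 0.31 in hsbam 2, where few reads fell on the genes. It was 1.59 in S19b RNAi 1, where 13 of 15 genes were higher on polysomes and CG14309 most so, at 5.68, and -0.13 in S19b RNAi 2, where 6 of 15 were higher. The medians over all genes were 0.15, -0.36, 0 and 0.02 in the same order. Within hsbam, within S19b RNAi and for the change of the ratio between them, edgeR's quasi-likelihood test without pairing passed 0 of the 15 genes. In these unpaired fits 0 had an unadjusted p under 0.05, DESeq2 called 0, and the percentage of all genes that passed was 0. The median change of the ratio was 0.70 on the log2 scale (range -0.19 to 2.22, SE 1.52 to 3.00, adjusted p = 1.00 for all 15). With libraries paired by number within each genotype, edgeR's quasi-likelihood test gave lower unadjusted p-values. For the change they were 0.00144 for CG13114, 0.00643 for CG14309, 0.00654 for CG4009 and 0.0432 for CG11674. CG13114, CG14309 and CG15570 within S19b RNAi and CG4009 within hsbam also had an unadjusted p under 0.05. After adjustment 0 of the 15 passed in the paired fit.

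**Figure D5:**
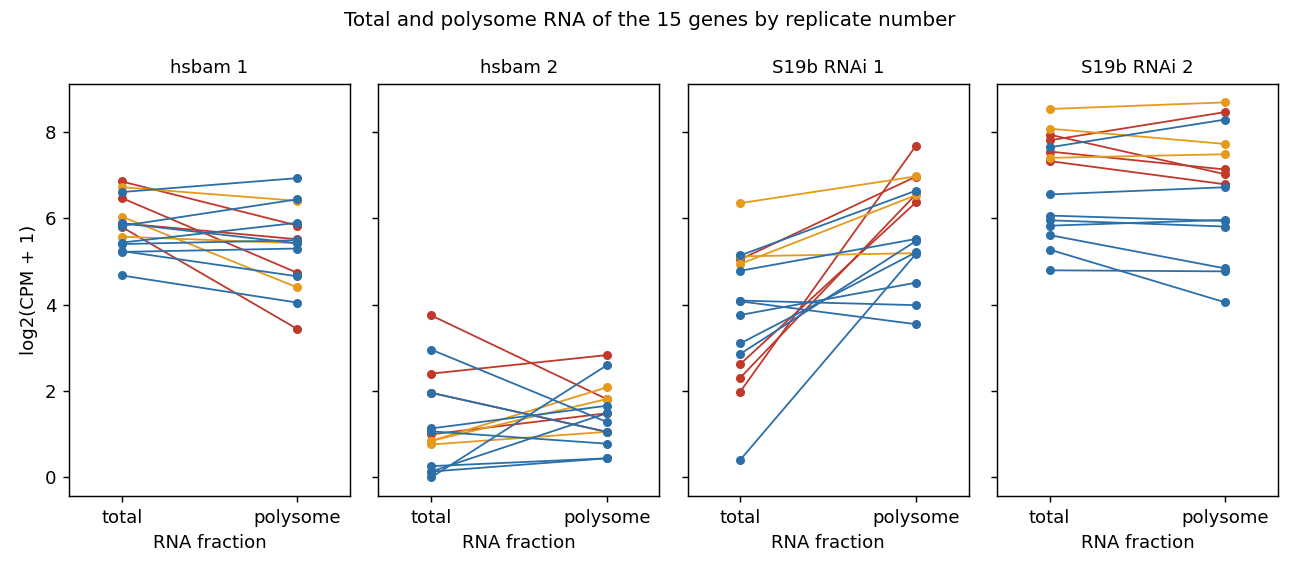
Each line joins the log2(CPM + 1) of 1 of the 15 genes in total RNA and in polysome RNA of the libraries with the same number, coloured by the list gene they follow most closely (red: Cp36, Cp38 or Cp7Fb; orange: Cp16, Cp19 or Femcoat; blue: a maternal gene or clos). In S19b RNAi 1 most lines rise, CG14309 by 5.68, while in S19b RNAi 2 they run nearly level, in hsbam 1 most fall, and in hsbam 2 the genes are low in both fractions.

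In the bam RNAi;S19b mutant libraries, which entered no test but did enter the grouping, the Cp36 and Cp16 variants differed between the 2 libraries. By median the highest genes there were CG15570 with 88.6 and 0.110 CPM in libraries 1 and 2, CG13084 with 83.2 and 1.10 CPM and CG13083 with 77.2 and 1.601 CPM. Cp38 had 333 and 1.10 CPM in the same libraries. All 7 genes of these variants were higher in library 1. Most genes of the maternal variant were alike in the 2 libraries, except CG44005 and CG9896, which were also higher in library 1. Among the alike were CG11674 with 12.06 and 10.2 CPM and CG6293 with 9.55 and 11.4 CPM.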

How the data were processed

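The deposited files held raw counts of reads per gene. Per the submitters' processing notes, the authors used featureCounts 1.6.0.4, HISAT2 2.1.0, edgeR 3.16.5 and the dm6 build. Libraries were poly(A)-selected and directional, per the labels' protocols. Of 17023 gene IDs, 16647 had a symbol in the reference. Gene models are from Ensembl release 115 (BDGP 6.54, dm6 coordinates).

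Tests of the counts used edgeR 4.0.16 under R 4.3.3 (filterByExpr with a minimum count of 10 and total of 15, TMM, quasi-likelihood fit, Benjamini-Hochberg over all genes tested, threshold 0.05) in 3 fits giving 9 comparisons. The 15 genes passed the filter in each fit, and p-values were adjusted over all tested genes. Fits were run on simulated data with the spread between replicates capped, so this does not show how they perform on wider spreads. CPM are counts over the library total without TMM. Non-overlap was counted over genes with at least 100 counts in the libraries compared. Alternatives were DESeq2 1.42.0, its size factors, library size alone, no filter, a 2-fold minimum, each library left out, a replicate block, hsbam 1 to 4 as control and other membership thresholds. Figures used matplotlib 3.10.9 in Python 3.11.15.

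The genes, the 7 lists (122 of 128 entries matched) and the tests were chosen with earlier results of these data known. All 15 genes are named. The naming rule covered the most abundant, those with the largest ratios, those passing each test, those at the thresholds, neighbours, and those most like the eggshell or maternal sums. The grouping by closest list gene was added after values were seen. The planned promoter and protein features were not analysed here. A further 8 small tables were not used.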

Additional observations from a re-analysis of the deposited data

Results flagged for a closer look

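In 8 of the 15 genes both bam RNAi;S19b mutant libraries, which no comparison used, stood above both bam RNAi libraries. Among all genes with at least 100 counts in these libraries the share was 25.8%, but the 15 genes had been chosen for low values in the same bam RNAi libraries, so nothing is read from the count, and the difference was not tested. The lower of the 2 mutant libraries had 10.2 CPM of CG11674, where bam RNAi had 5.96 and 7.99 CPM. It had 9.55 CPM of CG6293 against 1.46 and 3.27, 7.04 CPM of CG4408 against 0.314 and 1.56, and 9.38 CPM of CG40006 against 0 and 3.37 CPM. It had 2.68 CPM of CG4267, 1.77 CPM of CG44005, 1.601 CPM of CG13083 and 1.55 CPM of CG9896, where no bam RNAi library exceeded 1.25 CPM for these 4. Genes of the maternal variant made up 7 of the 8, beside 8 of the 15 in the set, and nothing is read from this either. In the same mutant libraries, fat body and hemocyte genes summed to 2022 and 4668 CPM, against 609 and 664 CPM in bam RNAi, and muscle sheath genes to 7926 and 13860.1 against 3514 and 3431 CPM. Their part was not tested.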

How the results depend on the processing

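The set itself changed with its thresholds, to 22 genes at a ratio of 8, 10 at 32, 21 at 10 CPM and 10 at 40 CPM. The libraries labelled MSL3 RNAi had 9 rises among the 15 genes, and leaving out single libraries gave 4 to 15. NC2b RNAi had 11, and 0 to 15 without single libraries. With hsbam 1 to 4 as control both counts were 0 by edgeR, with 7 and 11 genes at an unadjusted p under 0.05, and the cause was not tested. No alternative reversed a gene's direction in these comparisons or in Set2 RNAi, where 0 passed, DESeq2 called 2, hsbam 1 to 4 as control gave 2, and leaving out single libraries gave 0 to 15. Without a filter on low counts 5 genes passed in S19b RNAi polysome RNA, where 0 had passed. The median fold change in S19b RNAi total RNA was 1.00, and -0.57 (without S19b RNAi total 2) to 6.13 (without hsbam total 1) over libraries left out. The numbers of the libraries are not stated to mark a shared day or batch. Deviations of same-numbered total and polysome libraries correlated at 0.272 in hsbam and 0.46 in S19b RNAi, and only the replicate block paired them. Those of same-numbered libraries among hsbam 1 and 2 and the MSL3 and NC2b labels correlated at -0.07 to 0.12, so these were not taken as pairs. With a replicate block 7 genes passed in each of these 2 comparisons, all of the maternal variant. CG14309 and CG4009 did not pass in either, nor CG13114 and CG15570 in NC2b RNAi, and 0 genes passed in the total and polysome fits. Among the counts for the MSL3, NC2b and Set2 labels against hsbam, 13 of 36 recomputed values moved by more than 1.5 times. Low counts limit hsbam polysome 2, the shallowest library.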
